A study of Aspergillus nidulans with 32 samples.

Results

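The orsellinic acid cluster of Aspergillus nidulans, a filamentous fungus, was followed through 8 culture conditions by RNA sequencing. Its 5 genes were taken by identifier: orsA (AN7909), orsB (AN7911), orsC (AN7912), orsD (AN7913) and orsE (AN7914). They are 5 of the 10681 genes in the table of counts. The rule that lists them uses no measured value, but they were chosen with earlier results of these data known. Mycelium was grown at 37 °C in shaken minimal medium with 50 mM glucose and 10 mM nitrate. Each condition had 2 cultures, A and B, and each culture 2 technical libraries, which gave 16 cultures and 32 libraries. Transcriptional memory in secondary metabolism is the subject in the series title, and the question put to each gene is whether its level after a change of medium depended on an earlier starvation. Grown cultures spent 24 h in the medium. Starved cultures spent 20 h in it and 4 h in its salts without carbon or nitrogen source. Naive refed cultures passed from 24 h of growth to 2 h in fresh medium. Those pre-starved and refed got the same 2 h after 20 h of growth and 4 h of starvation. Naive and pre-starved salt cultures then spent 1 h in the salts. Naive and pre-starved used medium cultures instead spent 1 h in spent medium taken from 48 h cultures. A starvation history thus came with a shorter growth and a further change of medium, which cannot be told apart from the starvation itself. The labels name the wild type FGSC#4 and the strain alcA(p)-sGFP-aflR (RKIS42.17), whose name points to aflR under the alcA promoter, but do not say which strain gave which culture.

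Orsellinic acid is a small aromatic polyketide, and the cluster turns it into lecanoric acid and the F9775 pigments. The cluster is known as silent in ordinary laboratory culture and as one that contact with a Streptomyces bacterium switches on, through histone acetylation by the SAGA/Ada complex and its acetyltransferase GcnE. It is also derepressed when the COMPASS subunit CclA or the COP9 signalosome subunit CsnE is lost. The gene orsA encodes the non-reducing polyketide synthase that builds orsellinic acid, orsB an enzyme of the amidohydrolase family, orsC a tyrosinase and orsE a protein of the alcohol dehydrogenase type. AN7910, whose number falls within the block, is not analysed here, and no sequence of the genes was used.

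Levels are in CPM, a gene's share of its culture's counts on the usual CPM scale with TMM (trimmed mean) factors, and because a condition had n = 2 cultures both values are given in place of a standard deviation. Changes are given on the log2 scale, each with its standard error (SE), from a quasi-likelihood model of edgeR fitted to all 16 cultures and 10022 tested genes. A gene was called higher or lower at a Benjamini-Hochberg adjusted p under 0.05 over all tested genes, and every adjusted p below comes from that model unless another fit is named. All 5 members passed the filter on low counts, orsA, orsB and orsC through the conditions in which they are high. Library totals ran from 19634577 to 33202687 counts. The cultures of a condition are separate cultures per the labels. In bulk RNA, fewer cells with a transcript and less of it per cell cannot be told apart. Scaling by library totals in place of TMM moved the all-gene median of the log2 change by -0.67 to 0.76 over the 16 comparisons, and by more than 0.1 in 11 of them, so changes are relative to the bulk of genes. In 12 comparisons the share of higher among all calls then moved by over 10 percentage points, and both shares are given beside them. The summed level of a list of 7 conidial (asexual spore) markers moved with starvation history, most of it from rodA and brlA. In starved cultures rodA stood at 677 and 1072 CPM and brlA at 346 and 383. In pre-starved refed cultures they stood at 2021 and 1620 and at 127 and 74.5. In starved against grown cultures abaA and wetA were not called. In pre-starved refed against starved cultures dewA was lower, at a log2 change of -7.45 (SE 0.53). The sum was 23.5 and 25.1 CPM in grown, 22.4 and 24.3 in naive refed, 45.8 and 51.2 in naive salt and 40.0 and 51.9 in naive used medium cultures. It was 1072 and 1500.5 CPM in starved, 1728 and 2183 in pre-starved refed, 250.3 and 547 in pre-starved salt and 152 and 301 in pre-starved used medium cultures. No marker was at 0 in any culture. In starved against grown cultures 5 of 7 were called higher, where 38.8% of all tested genes were. It was 5 of 7 too in pre-starved against naive refed cultures (21.4% of all tested genes). The same count held in naive salt against naive refed (36.3%) and in pre-starved against naive salt cultures (24.7%). In naive used medium against naive refed cultures 5 of 7 were higher and 1 lower, where 38.1% and 38.0% of all tested genes were.

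The polyketide synthase gene orsA was all but silent in 4 cultures and highest in used medium. In grown cultures it had 2 counts in A and 2 in B, 0.0543 and 0.0524 CPM. In naive refed cultures it had 0 counts in A and 3 in B. After the 4 h starvation it stood at 3.53 CPM in A and 14.4 in B, and in pre-starved refed cultures at 3.97 and 19.1. Both conditions were far above grown and naive refed, and in both B lay above A. After 1 h of salt it was at 0.683 and 1.17 CPM in naive and at 2.21 and 2.31 in pre-starved cultures, between the silent and the starved levels. After 1 h of used medium it reached 15.1 and 33.0 CPM in naive and 26.3 and 30.8 in pre-starved cultures. By the mean the order ran from pre-starved used medium over naive used medium, pre-starved refed and starved to pre-starved salt, naive salt, grown and naive refed. The first 4 of these overlapped each with its neighbour, as did grown with naive refed, and the others did not.

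**Figure D1:**
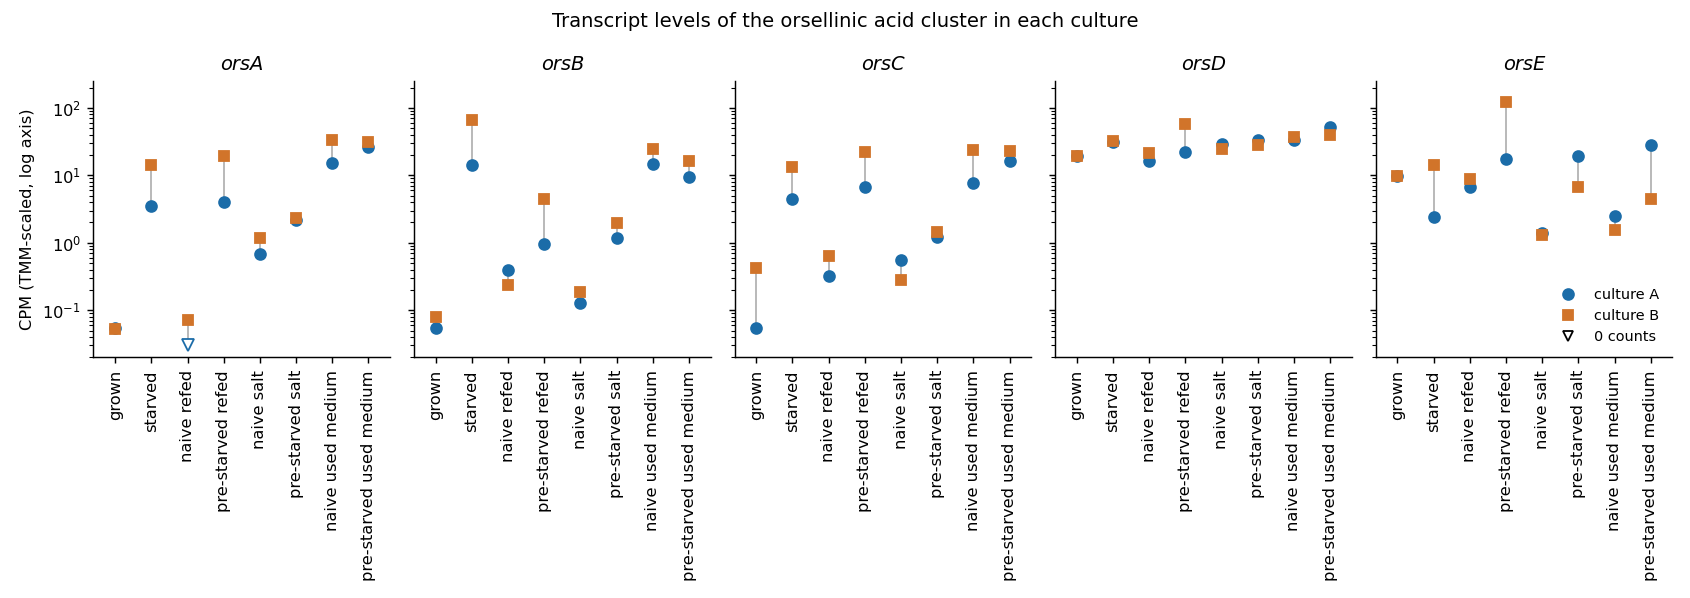
Level of each gene (CPM on a log axis) in culture A (blue circles) and culture B (orange squares) of the 8 conditions, with a line joining the cultures of a condition and an open triangle for 0 counts. The genes orsA, orsB and orsC lie under 1 CPM in grown and naive refed cultures and above 7 CPM in used medium, while orsD stays between 16.5 and 57.6 CPM.

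The gene orsB, for the amidohydrolase family enzyme, was highest after the long starvation. It stood at 0.0543 CPM in A and 0.0786 in B in grown cultures, 2 and 3 counts, and at 14.1 and 66.8 CPM in starved cultures. After refeeding it stood at 0.944 and 4.51 CPM in pre-starved and 0.392 and 0.237 in naive cultures. In salt it stood at 0.130 and 0.184 CPM in naive and 1.16 and 1.98 in pre-starved cultures. In used medium it stood high again, at 14.6 and 24.2 CPM in naive and 9.49 and 16.4 in pre-starved cultures. The starved, naive used medium and pre-starved used medium levels overlapped in a row, and all 3 conditions lay above the other 5.

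The tyrosinase gene orsC was low in grown cultures, at 0.0543 CPM in A and 0.419 in B, and in naive refed cultures, at 0.318 and 0.640. It stood at 4.42 and 13.2 CPM in starved, 6.70 and 22.2 in pre-starved refed, 7.70 and 23.5 in naive used medium and 16.4 and 23.2 in pre-starved used medium cultures. These 4 conditions overlapped each with its neighbour in the order of means. In salt it was at 0.553 and 0.277 CPM in naive and 1.24 and 1.46 in pre-starved cultures, the latter above the 3 lowest conditions and below the 4 highest without overlap.

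The genes orsD and orsE were transcribed in all 16 cultures. For orsD the lowest culture was naive refed A, at 16.5 CPM, and the highest pre-starved refed B, at 57.6, against 22.5 in its partner A. Apart from that pair the cultures of a condition lay closer, with 31.4 and 32.1 CPM in starved and 19.0 and 19.6 in grown cultures. The widest of these were 51.9 and 39.5 CPM in pre-starved used medium and 16.5 and 21.3 in naive refed cultures. For orsE the grown cultures stood at 9.85 and 9.67 CPM and the naive refed at 6.61 and 8.93. Naive cultures were low in salt, at 1.40 and 1.32 CPM, and in used medium, at 2.51 and 1.53. Pre-starved cultures were spread widely, with 17.6 in A and 122 in B after refeeding, 19.1 and 6.68 in salt and 28.4 and 4.42 in used medium. Starved cultures were at 2.37 and 14.4 CPM. The 6 conditions other than naive salt and naive used medium overlapped in a row, so the order of their means was within the spread of cultures.

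Set against exon length, the mix of transcripts differed between conditions. In grown cultures orsD stood at 11.0 and 11.4 CPM per kb and orsE at 6.89 and 6.77, while orsA was at 0.00842 and 0.00814. Together orsD and orsE made up all but a small part of the sum of 18.0 and 18.5 CPM per kb. In starved B orsB led with 55.6 CPM per kb, 58.6% of a sum of 94.9, and in starved A it held 33.6% of 35.0. In pre-starved refed B orsE led with 85.7 CPM per kb, 61.2% of 140.1, whereas in pre-starved refed A it held 39.7% of 31.1 behind orsD with 42.0%. In used medium the share of orsA, orsB and orsC together was larger than in salt in each culture. The synthase gene itself held at most 8.10% of the sum in any culture, in naive used medium B.

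**Figure D2:**
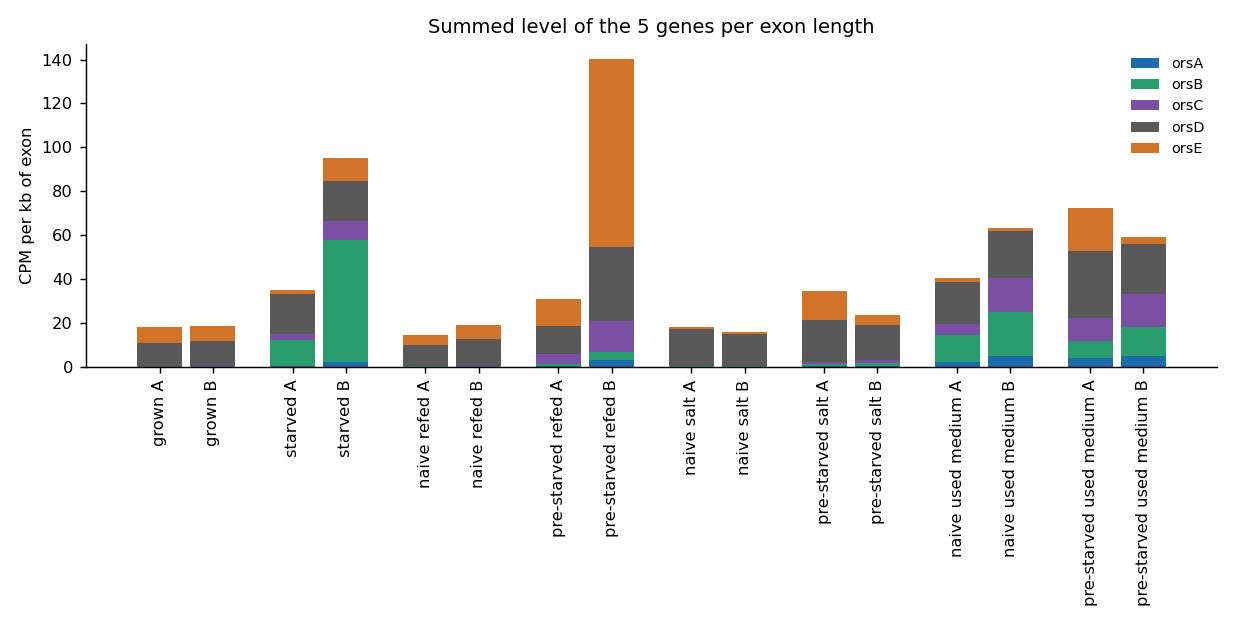
Summed level of the 5 genes in each culture in CPM per kb of exon, stacked by gene, on a linear axis from 0. The sum runs from 14.8 in naive refed A to 140.1 in pre-starved refed B, where orsE (orange) makes up 61.2%.

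The first starvation raised the genes orsA, orsB and orsC and left orsD and orsE without a call. In starved against grown cultures 3 of 5 members were called higher, where 38.8% of all tested genes were called higher and 34.6% lower (52.8% of calls higher, 69.8% with library totals). The counts of orsA gave a ratio of 166 (95% interval of counting error alone 64.7 to 610) and an adjusted p of 1.22e-04. The ratio of orsB, from 5 counts in grown cultures, was 599.8 (interval 257 to 1848; adjusted p 1.10e-05). These intervals cover counting error only and not the spread of cultures. Over all genes, technical libraries of a culture varied more than counting error alone gives (chi-square per degree of freedom 2.11 to 2.30). The intervals may thus be too narrow for technical error too. For orsC the log2 change was 5.19 (SE 0.94, adjusted p 3.02e-04). The log2 change of orsD was 0.72 (SE 0.32, adjusted p 0.0587), called with library totals (1.22, adjusted p 0.00222) and in the fit of these conditions alone (0.68, adjusted p 0.00318), and that of orsE -0.22 (SE 0.97, adjusted p 0.846), the latter 0.25 with library totals. The 3 calls held without each of the 4 cultures. Without starved B the log2 change was 5.99 for orsA, 7.68 for orsB and 4.20 for orsC, and without grown B orsC was at 7.28. The median of the 5 members was 5.19 against 0.10 for all tested genes. The part of the conidial markers, whose sum moved with these groups, was not tested.

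After 2 h in fresh medium the members parted. In pre-starved refed against starved cultures orsE was higher, with a log2 change of 3.06 (SE 1.03, adjusted p 0.0162), and orsB was lower, at -3.89 (SE 0.76, adjusted p 4.53e-04). Over all tested genes 35.2% were called higher and 41.1% lower (46.1% of calls higher, 27.8% with library totals). Without pre-starved refed B the log2 change of orsE was 1.07 (adjusted p 0.352) and without starved A 2.28 (adjusted p 0.0985), and neither was called. The genes orsA, orsC and orsD were not called, at log2 changes of 0.36, 0.72 and 0.34 (adjusted p 0.637, 0.345 and 0.344), and orsA changed sign to -0.31 and orsD to -0.35 with library totals. Without pre-starved refed A orsD was called, at 0.86. The call of orsB held without each of the 4 cultures, from -5.42 without pre-starved refed B to -2.37 without starved B. The median was 0.36 for the members and -0.15 for all tested genes. Fresh medium without starvation gave no call of a member, where few genes were called at all. In naive refed against grown cultures 0 of 5 members were called by edgeR, and DESeq2 called 0. By edgeR 0 of 5 had an unadjusted p under 0.05, where 1713 of 10022 tested genes did. Of all tested genes 2.13% were called higher and 0.978% lower there. For orsB, with 26 against 5 counts, the ratio was 4.70 (counting interval 1.77 to 15.7; adjusted p 0.536). For orsA, with 3 against 4 counts, it was 0.677 (counting interval 0.0992 to 4.00; adjusted p 0.951). The log2 change was 1.00 for orsC, -0.030 for orsD and -0.33 for orsE (adjusted p 0.724, 0.978 and 0.913). The medians were -0.03 for the members and -0.02 for all tested genes.

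Refed cultures differed by their past. All 5 members were called higher in pre-starved than in naive refed cultures, against 21.4% of all tested genes higher and 21.3% lower (50.1% of calls higher, 31.7% with library totals), with medians of 3.17 and 0.03. The counts of orsA were 1031 against 3, a ratio of 317 (counting interval 108 to 1539; adjusted p 2.48e-04). For orsB the log2 change was 3.11 (SE 0.91, adjusted p 0.0164), for orsC 4.91, for orsD 1.08 (SE 0.32, adjusted p 0.0167) and for orsE 3.17 (SE 1.04, adjusted p 0.0271). The calls of orsB, orsD and orsE were lost when single cultures were left out. Without pre-starved refed B the log2 change was 1.59 for orsB, 0.25 for orsD and 1.18 for orsE (adjusted p 0.228, 0.369 and 0.389). Without naive refed A it was 3.51 for orsB, 0.91 for orsD and 2.97 for orsE, and without naive refed B 2.79 for orsB and 3.40 for orsE, none of them called. The fit of these conditions alone gave orsD at 1.04 (adjusted p 0.0679). The genes orsA and orsC were called whichever of the 4 cultures was left out, with lowest log2 changes of 6.70 for orsA and 3.80 for orsC without pre-starved refed B, and orsA at 12.3 without naive refed B. In technical library 1 of pre-starved refed B orsB had 136 counts and in library 2 it had 65, and of 1310 genes with a comparable sum 0.382% were as far apart. With library 2 of each culture alone, its log2 change was 2.22 (adjusted p 0.101). The part of the conidial markers, of which 5 of 7 were higher here too, was not tested.

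**Figure D3:**
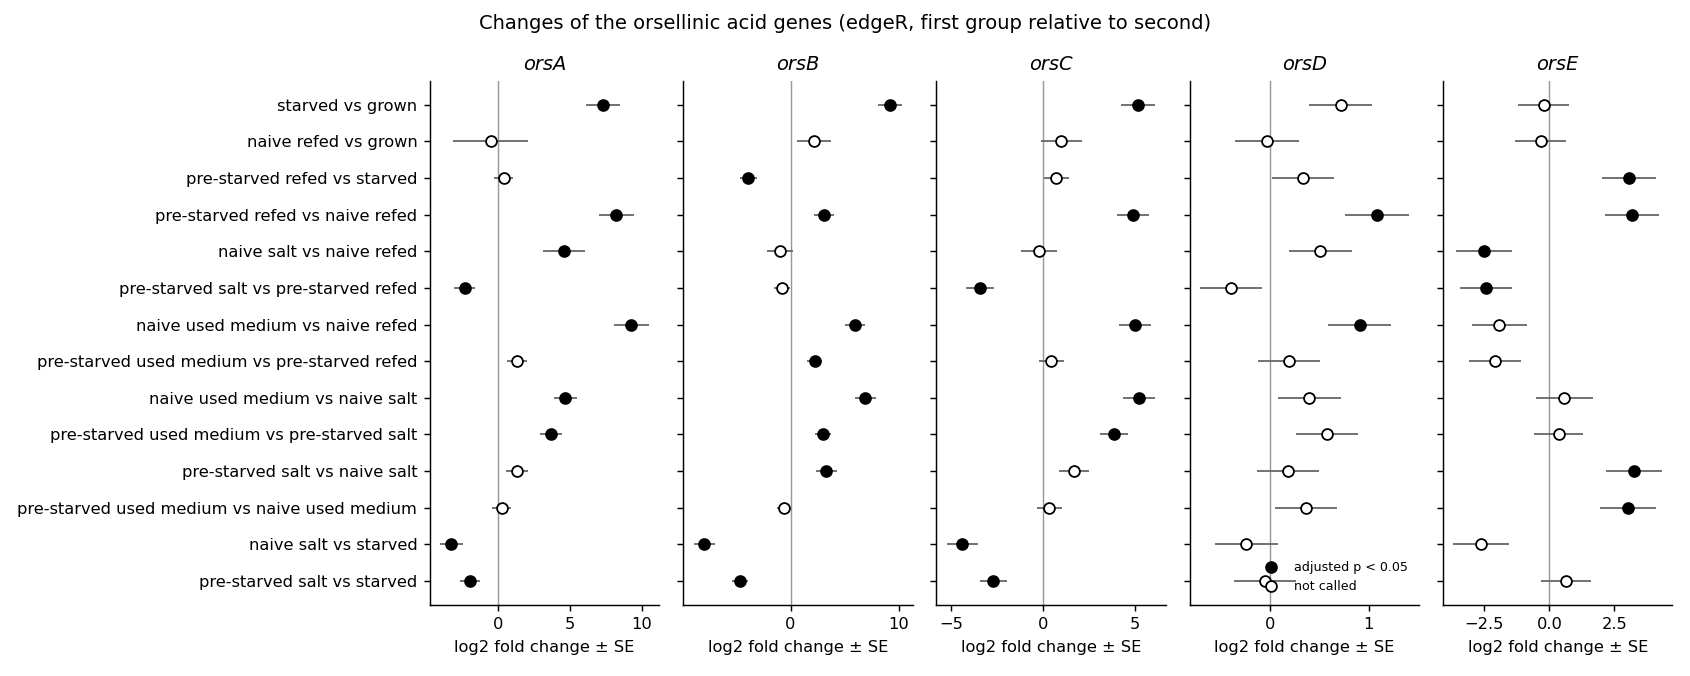
Log2 fold change with its SE (horizontal axis, scaled for each gene) of the first condition against the second, for 14 comparisons and the 5 genes, with filled points for genes called at an adjusted p under 0.05. In naive used medium against naive refed orsA, orsB, orsC and orsD are called higher, and in pre-starved salt against pre-starved refed orsA, orsC and orsE are called lower.

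In naive cultures 1 h in salts raised orsA and lowered orsE. Against naive refed cultures, naive salt cultures had orsA higher, with 118 against 3 counts and a ratio of 25.8 (counting interval 8.62 to 127; adjusted p 0.0118). They had orsE lower, at a log2 change of -2.51 (SE 1.07, adjusted p 0.0496). Of all tested genes 36.3% were called higher and 39.1% lower (48.1% of calls higher, 64.4% with library totals). Without naive refed A, the culture with 0 counts, orsA was at a log2 change of 3.67 and not called (adjusted p 0.0734). The call of orsE was lost without any 1 of the 4 cultures (log2 change -2.71 to -2.28), with library totals (-1.98, adjusted p 0.0920) and with RLE size factors (-2.47, adjusted p 0.0539). The genes orsB, orsC and orsD were not called, at log2 changes of -0.98, -0.22 and 0.51, of which orsC was at 0.32 with library totals and orsD was called there at 1.04 (adjusted p 0.00593) and in the fit of these conditions alone at 0.59 (adjusted p 0.0144). With technical library 1 of each culture alone orsB was at 0.25 and orsC at 0.83. The medians were -0.22 for the members and -0.03 for all tested genes.

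In pre-starved cultures 3 members fell in salts. Against pre-starved refed cultures, orsA, orsC and orsE were lower in pre-starved salt cultures, where 36.4% of all tested genes were called lower (52.5% of calls higher, 72.8% with library totals). The log2 change was -2.35 for orsA (SE 0.72, adjusted p 0.0101), -3.42 for orsC (SE 0.75, adjusted p 0.00114) and -2.44 for orsE (SE 1.00, adjusted p 0.0407). Without pre-starved refed B it was -0.81 for orsA and -0.45 for orsE, and orsC alone stayed called without each of the 4 cultures, at -2.31 without pre-starved refed B. Without pre-starved salt A orsA was at -2.32 (adjusted p 0.0539), and without pre-starved salt B orsA was at -2.38 (adjusted p 0.0508) and orsE at -1.87 (adjusted p 0.205). With library totals orsA was at -1.55 (adjusted p 0.0503) and orsE at -1.65 (adjusted p 0.120). The genes orsB and orsD were at -0.78 and -0.39, and at 0.012 and 0.39 with library totals, with no call, although orsD was called at -0.91 without pre-starved refed A. The medians were -2.35 for the members and 0.09 for all tested genes.

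The difference of the salt responses, pre-starved minus naive, was called for orsA alone, where 12.0% of all tested genes were called lower (58.7% of calls higher, 77.8% with library totals). It was -6.95 on the log2 scale (SE 1.57, adjusted p 0.00654), and its size rests on the 3 counts of the naive refed cultures. It was called whichever of the 8 cultures was left out, from -11.0 without naive refed B to -5.42 without pre-starved refed B. For orsC the difference was -3.20 (SE 1.19, adjusted p 0.0631). It was called by DESeq2, at -3.35 (adjusted p 0.0316), in the fit of these conditions alone (-3.29, adjusted p 0.0240) and with technical library 1 alone (-4.58, adjusted p 0.0226). Without pre-starved refed A it was called for orsC at -3.82 and for orsD at -1.42. The difference was 0.19 for orsB, -0.90 for orsD and 0.071 for orsE (adjusted p 0.931, 0.152 and 0.978), the last -0.051 with DESeq2 and -0.053 with RLE size factors. Compared directly in salts, pre-starved cultures had orsB and orsE higher than naive ones, where 24.7% of all tested genes were. The log2 change was 3.31 for orsB (SE 0.95, adjusted p 0.0144) and 3.24 for orsE (SE 1.08, adjusted p 0.0295). For orsA it was 1.28 and for orsC 1.70 (adjusted p 0.198 and 0.118), although neither gene overlapped between the conditions. The gene orsD was at 0.18 (adjusted p 0.669). The fit of these conditions alone called orsA at 1.24 and orsC at 1.66. The call of orsB was lost without naive salt A (3.08), naive salt B (3.58) or pre-starved salt B (2.86), and that of orsE without naive salt A (3.28), naive salt B (3.20) or pre-starved salt A (2.29). In naive salt cultures orsB had 7 and 1 counts in the technical libraries of A and 11 and 1 in those of B. With technical library 1 alone its log2 change was 2.45 (adjusted p 0.0617). The medians of the direct comparison were 1.70 for the members and 0.04 for all tested genes, and those of the difference of responses -0.90 and 0.12.

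Used medium raised orsA, orsB, orsC and orsD in naive cultures. Against naive refed cultures 4 of 5 members were higher after 1 h, where 38.1% of all tested genes were called higher and 38.0% lower (50.04% of calls higher, 60.8% with library totals). The counts of orsA were 2146 against 3, a ratio of 642 (counting interval 219 to 3115; adjusted p 1.60e-05). The log2 change was 5.94 for orsB (SE 0.92, adjusted p 6.68e-05), 5.01 for orsC (SE 0.86, adjusted p 1.71e-04) and 0.91 for orsD (SE 0.32, adjusted p 0.0204). The call of orsD was lost without naive refed A (0.74) or naive used medium B (0.83). The other 3 calls held without each culture, with orsA at 13.4 without naive refed B and orsC at 4.00 without naive used medium B. The gene orsE was at -1.94 (SE 1.06, adjusted p 0.112), and the fit of these conditions alone called it lower at -1.93 (adjusted p 0.00146). The medians were 5.01 for the members and 0.02 for all tested genes. The part of the conidial markers, of which 5 of 7 were higher and 1 lower here, was not tested.

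In pre-starved cultures used medium raised orsB. Against pre-starved refed cultures it was the 1 member called, higher by a log2 change of 2.24 (SE 0.72, adjusted p 0.0123), where 39.9% of all tested genes were called higher (51.8% of calls higher, 67.8% with library totals). The call was lost without pre-starved refed A (1.52, adjusted p 0.0887) or pre-starved used medium B (1.80, adjusted p 0.0628). The log2 change was 1.31 for orsA (adjusted p 0.0982), 0.45 for orsC, 0.19 for orsD and -2.09 for orsE (adjusted p 0.0699), none of them called. Library totals gave calls of orsA at 1.95 (adjusted p 0.0170) and of orsD at 0.81 (adjusted p 0.0213). Without pre-starved refed B orsA was called at 2.85 and orsD at 1.03, and orsE was called lower without pre-starved refed A (-2.89) or pre-starved used medium A (-3.98). The medians were 0.45 for the members and 0.07 for all tested genes.

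The difference of the used medium responses, pre-starved minus naive, was called for orsA, orsB and orsC, where 12.3% of all tested genes were called lower (55.2% of calls higher, 75.1% with library totals). It was -7.98 for orsA (SE 1.47, adjusted p 0.00220), -3.70 for orsB (SE 1.14, adjusted p 0.0307) and -4.56 for orsC (SE 1.08, adjusted p 0.00846). The calls of orsA and orsC held without each of the 8 cultures, and that of orsB was lost in 5 of these fits, at -4.10 and -3.38 without naive refed A and B, -2.17 without pre-starved refed B (adjusted p 0.195), -3.28 without naive used medium B and -3.35 without pre-starved used medium A, and with technical library 2 alone (-2.87, adjusted p 0.105). Without naive refed B orsA was at -12.1, without pre-starved refed B orsC was at -3.45, and without pre-starved refed A orsD was called at -1.24. The difference was -0.72 for orsD and -0.16 for orsE (adjusted p 0.256 and 0.949), the latter 0.090 with library totals. The levels reached in used medium were then compared directly. Between pre-starved and naive used medium cultures the log2 change was 0.25 for orsA, -0.59 for orsB, 0.34 for orsC and 0.37 for orsD (adjusted p 0.792, 0.512, 0.713 and 0.381), with overlapping cultures for orsA, orsB and orsC. Only orsE was called, higher at 3.02 (SE 1.07, adjusted p 0.0414), where 21.6% of all tested genes were. Its call was lost without naive used medium A (3.43) or B (2.70), without pre-starved used medium A (1.12), in the fit of these conditions alone (adjusted p 0.0670) and with technical library 2 alone (2.84, adjusted p 0.0554). The medians were -3.70 and 0.08 for the difference of responses and 0.34 and 0.01 for the direct comparison, for members and for all tested genes.

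Used medium and salts were compared after the same 1 h. In naive cultures orsA, orsB and orsC were higher in used medium than in salts, where 8.09% of all tested genes were called higher (55.4% of calls higher, 29.1% with library totals). The log2 change was 4.69 for orsA (SE 0.81, adjusted p 0.00255), 6.92 for orsB (SE 0.96, adjusted p 6.33e-04) and 5.23 for orsC (SE 0.85, adjusted p 0.00176). All 3 were called without each of the 4 cultures, orsC at 4.21 and orsA at 4.02 without naive used medium B. In pre-starved cultures the same 3 genes were higher, at 3.66 for orsA, 3.03 for orsB and 3.87 for orsC (SE 0.75, 0.73 and 0.76; adjusted p 0.00533, 0.0139 and 0.00404), where 9.02% of all tested genes were (53.0% of calls higher, 28.6% with library totals). Without pre-starved salt B orsA (3.69) and orsB (3.47) were not called, nor was orsB without pre-starved salt A (2.70). The genes orsD and orsE were not called in either, at 0.40 and 0.58 in naive and 0.58 and 0.35 in pre-starved cultures. The medians were 4.69 for the members and -0.01 for all tested genes in naive cultures, and 3.03 and -0.05 in pre-starved ones.

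After 1 h in salts orsA, orsB and orsC stood below their levels after the 4 h starvation. Naive salt cultures had orsA, orsB and orsC lower than starved cultures, at log2 changes of -3.27, -7.98 and -4.40 (SE 0.77, 0.98 and 0.83; adjusted p 0.00360, 3.06e-05 and 7.97e-04), where 29.2% of all tested genes were called lower. Without starved B orsA was at -1.92 (adjusted p 0.0548). Pre-starved salt cultures had the same 3 genes lower than starved ones, at -1.99, -4.68 and -2.70 (SE 0.71, 0.78 and 0.73; adjusted p 0.0490, 7.66e-04 and 0.0137), where 16.6% of all tested genes were (51.4% of calls higher, 62.0% with library totals). The calls of orsA and orsC were lost without starved B (-0.64 and -1.71), pre-starved salt A (-1.95 and -2.59) or pre-starved salt B (-2.01 and -2.82), and that of orsA with DESeq2 (-2.01, adjusted p 0.0627), library totals (-1.87, adjusted p 0.0506) and technical library 2 alone (-1.95, adjusted p 0.0563). The gene orsD was at -0.24 in naive and -0.053 in pre-starved salt cultures (adjusted p 0.552 and 0.916), the latter 0.043 with library totals. The gene orsE was at -2.62 in naive and 0.62 in pre-starved salt cultures (adjusted p 0.0564 and 0.651), the former called by DESeq2 (-2.52), in the fit of these conditions alone (-2.55) and without starved A (-3.40). The medians were -3.27 and -1.99 for the members and -0.06 and 0.02 for all tested genes.

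Cultures A and B of a condition stood far apart for several members. In starved cultures 5 of 5 members were higher in B, with log2 ratios of B to A from 0.03 for orsD to 2.60 for orsE, where the 5th and the 95th percentile of all tested genes were -0.60 and 0.72. In pre-starved refed cultures 5 of 5 were higher in B, from 1.36 for orsD to 2.80 for orsE, with percentiles of -0.67 and 0.70. In naive used medium orsA, orsB and orsC were higher in B at 1.13, 0.72 and 1.61, and orsE lower at -0.72. The sign of orsE changed with the condition. It stood at -1.52 in pre-starved salt, where 0.774% of tested genes were lower, and at -2.68 in pre-starved used medium, where 0.394% were, while orsA, orsB and orsC were higher in B in both. The labels tie no letter to a shared origin across conditions, and the ratios are taken within a condition, with 1 culture a side and no test. Over all tested genes the ratios correlated at 0.14 to 0.36 among pre-starved salt, naive used medium and pre-starved used medium. These are the conditions in which orsE was at -0.72 or lower. Their correlations with the other conditions were -0.28 to 0.0053, and a shared origin of cultures was not tested. The summed conidial markers were 1072 CPM in starved A and 1500.5 in starved B, and 2183 in pre-starved refed A and 1728 in B.

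**Figure D4:**
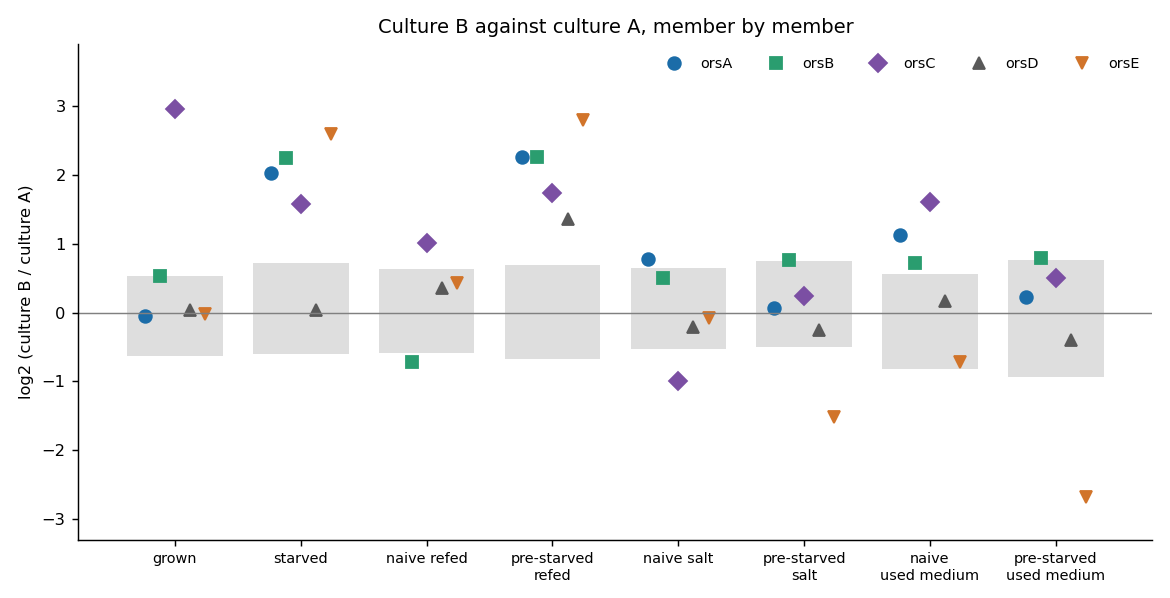
Log2 ratio of culture B to culture A for each gene in the 8 conditions, over a grey box from the 5th to the 95th percentile of all tested genes, without orsA in naive refed, where culture A had 0 counts. All 5 genes are above 0 in starved and pre-starved refed cultures, and orsE falls to -2.68 in pre-starved used medium.

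Technical libraries of a culture lay closer together than cultures. The chi-square statistic over all genes, divided by its degrees of freedom, was 2.11 to 2.30 between the libraries of a culture and 45.4 to 278 between the cultures of a condition. For orsA in starved B they held 460 and 503 counts. Pairs of libraries of the members were looked at where their summed count was at least 20, which leaves out orsB in naive salt cultures. Besides orsB in pre-starved refed B, given above, 4 pairs were far apart for their counts, with no adjustment for the number of pairs. They were orsE in pre-starved refed B (2570 and 2883 counts), orsE in pre-starved salt B (320 and 239), orsC in pre-starved salt B (42 and 80) and orsB in starved A (531 and 450). Of the genes with a comparable sum 1.90%, 2.44%, 4.02% and 4.63% were as far apart.

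Across the 16 cultures orsA, orsB, orsC and orsD had higher correlations with each other than with orsE. Pearson's r of log2 CPM was 0.91 for orsA with orsC, 0.89 for orsB with orsC, 0.86 for orsA with orsB and 0.87 for orsA with orsD, and lower for orsC with orsD (0.81) and orsB with orsD (0.70). For orsE it was 0.09 with orsA, 0.06 with orsB, 0.24 with orsC and 0.30 with orsD. The 2 cultures of a condition share its treatment, so the 16 points are not independent and these values are descriptions. Among 9078 other genes whose mean reached 1 CPM, the one most like the mean standardised profile of the members was AN12004 (r 0.97), with a mean of 0.0922 CPM in grown, 4.42 in starved, 3.59 in pre-starved refed and 6.66 in pre-starved used medium cultures. Next came AN3587 (r 0.94) and AN9340 (r 0.90), which the reference annotation names creB and treA, and AN0253, AN8893, AN1518, AN1902, AN1966, AN6271 and AN11584 (r 0.89 to 0.87). In the order of genes AN11584 lies among those of the benzaldehyde derivative cluster. By the ratio of B to A over the 8 conditions the most alike were AN2726, AN7229, AN2393, AN7901, AN5315, AN8894, AN8998, AN2727, AN7269 and AN7266 (r 0.97 to 0.93), of which AN7901 belongs to the benzaldehyde derivative cluster.

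The benzaldehyde derivative cluster, AN7896 to AN7903, lies next to the orsellinic acid genes with 5 genes between them in the reference order. Its 8 tested genes had 5 called higher in starved against grown cultures, where 38.8% of all tested genes were. In pre-starved against naive refed cultures 0 were called, where 42.7% of all tested genes and all 5 orsellinic acid genes were. In naive used medium against naive refed cultures 1 of 8 was higher, where 38.1% of all tested genes were. Its cultures differed in the same direction as the members in 2 conditions, with 8 of 8 genes higher in B in starved (median 10.6-fold) and in pre-starved refed cultures (4.95-fold). Of all tested genes 47.0% and 50.1% were higher in B there. In pre-starved salt and naive used medium cultures 0 of 8 were higher in B, where 52.2% and 49.8% of all tested genes were. The genes orsA, orsB and orsC were higher in B in both. In pre-starved used medium 8 of 8 were higher in A, by a median of 31.8-fold, as orsD and orsE were and orsA, orsB and orsC were not. Of all tested genes 57.8% were higher in B in that condition. Of the terrequinone cluster, which makes a bisindole, 3 of 5 genes were tested, and all 3 were higher in starved against grown, in pre-starved against naive refed and in naive used medium against naive refed cultures, their median log2 changes being 11.35, 4.05 and 9.86. Of all tested genes 38.8%, 21.4% and 38.1% were called higher in these comparisons. In pre-starved salt against starved cultures all 3 were lower, as orsA, orsB and orsC were, and so were 16.6% of all tested genes. In pre-starved refed against starved cultures all 3 were lower (median -6.87), where orsB was and orsA and orsC were not called. Of all tested genes 41.1% were called lower there. In pre-starved salt against pre-starved refed cultures 2 were higher, where orsA and orsC were lower and 76.6% of all tested genes were called. In pre-starved against naive used medium all 3 were higher, where orsA, orsB and orsC were not called. Of all tested genes 21.6% were called higher there.

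Neighbours of the cluster were taken by number from AN7893 to AN7930, which gave 31 genes of the table beside the members, of which 30 entered the test. AN11584, which lies in that stretch under another number, is not among them. In pre-starved against naive refed cultures 5 of the 30 were higher and 2 lower, where 21.4% and 21.3% of all tested genes were. The higher ones were AN7905 (log2 change 1.13, SE 0.39, adjusted p 0.0353), AN7906 (1.74, SE 0.59, adjusted p 0.0318) and AN7907 (1.31, SE 0.35, adjusted p 0.00980) to the side of orsA, and AN7915 (0.95, SE 0.19, adjusted p 0.00196) and AN7926 (1.30, SE 0.38, adjusted p 0.0166) to the side of orsE. The gene AN7908, next to orsA, was at -0.31 (SE 0.64, adjusted p 0.725). At the other end, AN7915 is the direct neighbour of orsE and stood at 61.3 and 91.9 CPM in pre-starved refed and 37.6 and 41.8 in naive refed cultures. Of the 30 genes 15 were higher and 6 lower in starved against grown cultures, where 38.8% and 34.6% of all tested genes were. In naive used medium against naive refed cultures 13 were higher and 5 lower, where 38.1% and 38.0% of all tested genes were.

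**Figure D5:**
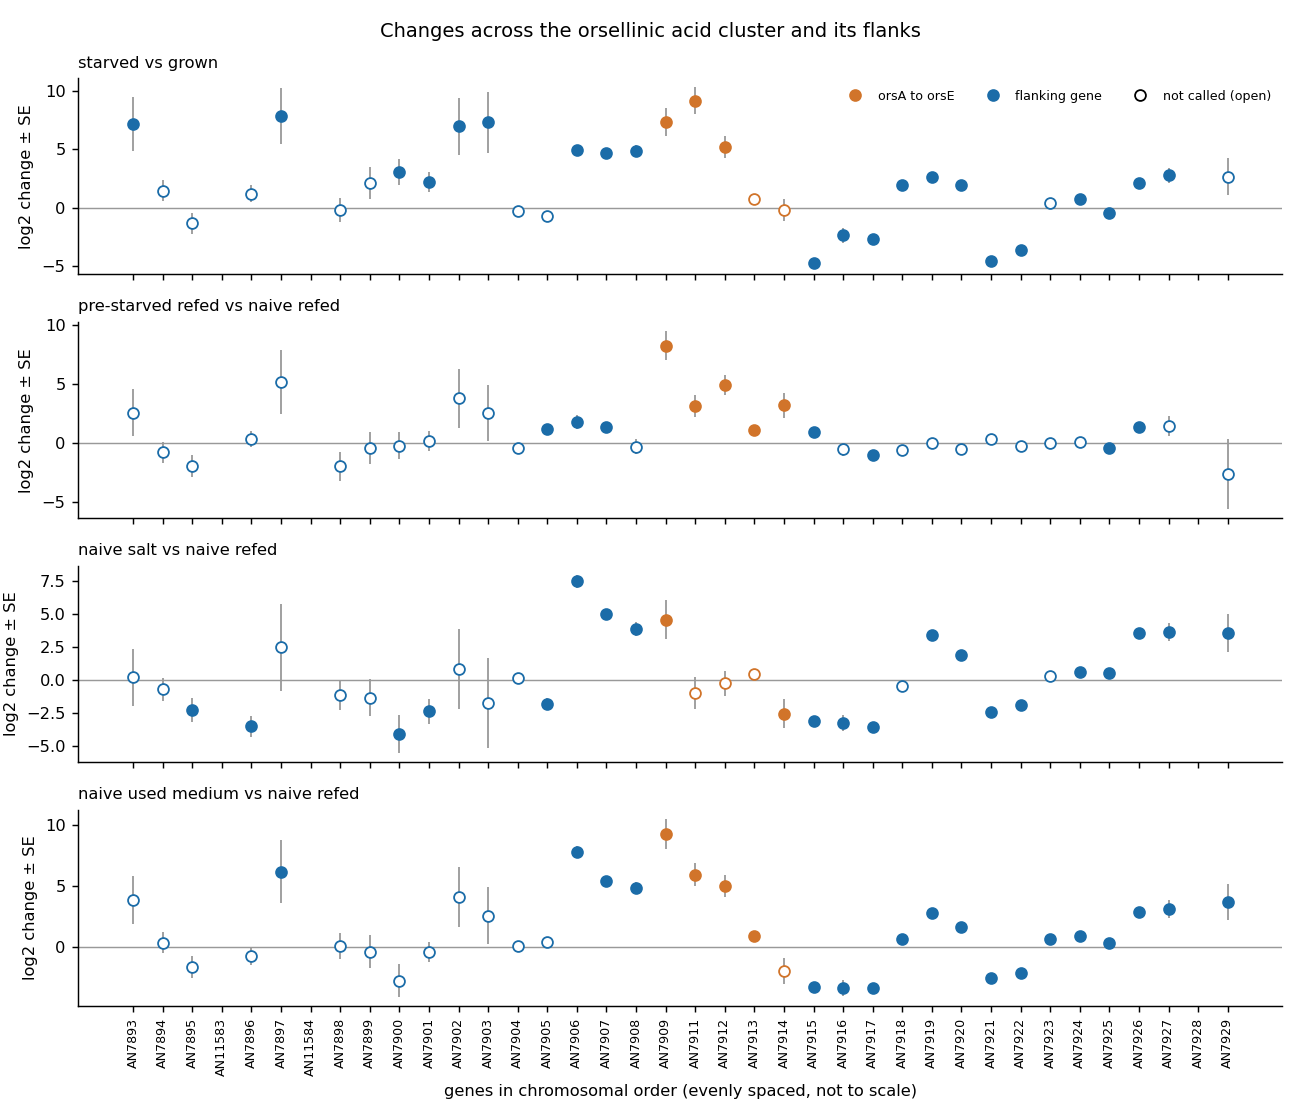
Log2 fold change with its SE (vertical axis) of genes in the chromosomal order of the reference annotation, evenly spaced, in 4 comparisons, with the members in orange, flanking genes in blue and open points for genes not called. Positions without a point were not tested or not examined. In pre-starved against naive refed cultures the 5 members are all called, with values from 1.08 to 8.23, and 7 of 30 flanking genes are.

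Of 13 regulators and supply genes of the pathway 2 were higher and 2 lower in pre-starved against naive refed cultures, where 42.7% of all tested genes were called, with a median log2 change of -0.0029. Higher were laeA, a global regulator of secondary metabolism, at 0.63 (SE 0.10, adjusted p 3.39e-04), and hdaA, a histone deacetylase gene, at 0.48 (SE 0.11, adjusted p 0.00359). Lower were mcrA, a repressor of many clusters, at -1.52 (SE 0.10, adjusted p 6.73e-07), and csnE of the COP9 signalosome, at -0.64 (SE 0.16, adjusted p 0.00739). The gene basR, for a transcription factor that activates this cluster in contact with Streptomyces, stood at 39.9 and 42.4 CPM in pre-starved and 36.1 and 46.3 in naive refed cultures (adjusted p 0.990). In starved against grown cultures 7 of the 13 were higher and 3 lower, and 73.4% of all tested genes were called in either direction. In naive used medium against naive refed cultures 7 were higher and 2 lower, where 76.2% were called. Among the comparisons of used medium with salts, chosen after its values were seen, basR stood at 103.9 and 89.8 CPM in pre-starved used medium and 33.7 and 38.3 in pre-starved salt cultures, a log2 change of 1.43 (SE 0.16, adjusted p 7.47e-05). It was the 1 gene of the 13 called there, where 9.02% of all tested genes were called higher. In naive used medium against naive salt cultures basR was at 0.62 (SE 0.16, adjusted p 0.0189), and laeA (0.48, adjusted p 0.00723) and velB (0.44, adjusted p 0.0188) were called higher too. Of all tested genes 8.09% were called higher there.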

How the data were processed

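RNA of 16 cultures of Aspergillus nidulans was sequenced as unstranded 50 nt single reads, per the labels' protocols, so reads of overlapping genes on opposite strands cannot be told apart. The deposited table holds raw counts per gene for 32 libraries. Per the submitters' processing notes the tools were Trimmomatic 0.36, BWA, HTSeq, edgeR and limma, and their filters and gene annotation were not given in the labels or headers. The same table holds the authors' log2 FPKM values, 1 for each group, which were not used, and the log2 of exon length in kb, per the file headers, from which levels per kb were made. The counts of the 2 technical libraries of each culture were summed, which gave 39526910 to 66121549 counts a culture. Genes were filtered with filterByExpr of edgeR 4.0.16 in R 4.3.3 (minimum count 10, minimum total 15), scaled by TMM and fitted with glmQLFit over 8 groups without a further term. Each of 16 comparisons was tested with glmQLFTest and adjusted by Benjamini-Hochberg over 10022 genes, and the SE is the log2 fold change divided by the square root of F. P-values measure the spread between these cultures. Intervals of count ratios are exact 95% conditional intervals. The genes named are all members in every comparison, the 10 genes most like them by Pearson's r (prior count 2), neighbours and regulators called in pre-starved against naive refed cultures, and others where stated. Members and lists were chosen with earlier results of these data known. Alternatives were DESeq2 1.42.0, RLE factors, library totals, no filter, a culture letter term, the compared groups alone, each culture left out and, chosen after the data were seen, 1 technical library of each culture. Gene names and order are from RefSeq's ASM1142v1, another build, to which 9967 of 10681 identifiers matched. The edgeR fit was run on simulated counts for starved against grown cultures alone. Planted changes were in genes without low mean counts and smaller than those of orsA, orsB and orsC there. Differences of responses were not simulated.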

Additional observations from a re-analysis of the deposited data

Results flagged for a closer look

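Responses of pre-starved and naive cultures to the same change of medium differed by a test of the difference itself, the interaction term of the edgeR model, in 4 values. For the response to salts this was orsA, at -6.95 on the log2 scale. For the response to used medium these were orsA at -7.98, orsB at -3.70 and orsC at -4.56. Both orsA values rest on naive refed cultures with 0 counts in A and 3 in B. Of all tested genes 29.1% were called in the difference of salt responses and 27.4% in that of used medium responses. When single cultures were left out, the orsB value ran from -4.42 to -2.17 and its call did not hold throughout. Pre-starved against naive used medium cultures gave no call of orsA, orsB or orsC. Their log2 changes there were 0.25, -0.59 and 0.34. In pre-starved against naive salt cultures orsA was not called either, at 1.28.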

How the results depend on the processing

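Of 80 changes (16 comparisons of 5 genes), 76 kept direction and call with DESeq2, 78 with RLE factors, 64 with library totals, 80 with no filter, 74 and 75 with technical library 1 and 2 alone, 68 of 78 in the compared groups alone, and 269 of 360 values with 1 culture left out. Where a fit left a condition with 1 culture, that culture was assumed to vary like the others. The cause of a change was not tested, and low counts of orsA, orsB and orsC in grown and naive cultures limit their fold changes. Culture letters did not pair the samples alike in all conditions: deviations from group means over 10022 genes correlated at -0.28 to 0.36, above 0.1 in 10 of 28 pairs of conditions. They correlated at 0.14 to 0.36 among pre-starved salt, naive used medium and pre-starved used medium. Among grown, starved, naive refed, pre-starved refed and naive salt it was 0.05 to 0.25. Between these sets it was -0.28 to 0.0053. A letter term takes B to differ from A alike in every condition. A shared origin of cultures was not tested. With the letter as a replicate block, 74 of 80 kept direction and call, and calls went to 1 in naive salt against naive refed, 2 in pre-starved salt against pre-starved refed (orsE lost, -2.39, adjusted p 0.0667), 3 in pre-starved against naive salt (orsC gained, 1.63, adjusted p 0.0466), 2 in the difference of salt responses, 2 in pre-starved used against pre-starved refed and 0 in pre-starved against naive used medium.

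Counts of members called in all these fits stand without the share of all genes called there. A general change in calls thus cannot be told apart from one in the members. Calls of members in naive salt against naive refed were 1 with RLE factors and 1 with technical library 1. They were 1 with library totals in pre-starved salt against pre-starved refed. In pre-starved against naive salt they were 4 in the groups alone and 1 with technical library 1. In the difference of salt responses they were 2 with DESeq2, 2 in the groups alone and 2 with technical library 1. In pre-starved used against pre-starved refed they were 3 with library totals. In pre-starved against naive used medium they were 0 in the groups alone and 0 with technical library 2.

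Signs turned for uncalled members. With library totals orsE was at 0.25 in starved against grown, orsA at -0.31 and orsD at -0.35 in pre-starved refed against starved, orsC at 0.32 in naive salt against naive refed, orsB at 0.012 and orsD at 0.39 in pre-starved salt against pre-starved refed, orsE at 0.090 in the difference of used medium responses and orsD at 0.043 in pre-starved salt against starved. The difference of salt responses of orsE was -0.051 with DESeq2, -0.053 with RLE factors and -0.014 in the groups alone. With technical library 1 orsB was at 0.25 and orsC at 0.83 in naive salt against naive refed, and orsB at -1.44 in the difference of salt responses.

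The median log2 ratio of B to A went to 0.31 with library totals and 0.42 with RLE factors in naive refed, to 0.72 with either in naive used medium and to 0.28 and 0.18 in pre-starved used medium. It was 1.97 with technical library 2 in pre-starved refed, and -0.22 and -0.30 with library 1 in naive and pre-starved salt.

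With 1 culture left out, calls ran from 1 to 3 in pre-starved refed against starved, 2 to 5 in pre-starved against naive refed, 0 to 1 in naive salt against naive refed, 1 to 4 in pre-starved salt against pre-starved refed, 0 to 1 in pre-starved against naive salt and 1 to 3 in the difference of salt responses. They ran from 0 to 3 in pre-starved used against pre-starved refed, 0 to 1 in pre-starved against naive used medium, 1 to 3 in pre-starved used medium against salt and 1 to 3 in pre-starved salt against starved. Log2 changes whose sign turned ran as follows. In starved against grown orsE ran from -2.04 to 0.56. In pre-starved refed against starved orsA ran from -1.17 to 1.71, orsC from -0.39 to 1.71 and orsD from -0.50 to 0.86. In naive refed against grown orsA ran from -4.63 to 0.40 and orsD from -0.23 to 0.14, and in naive salt against naive refed orsC ran from -0.79 to 0.38. In pre-starved salt against pre-starved refed orsB ran from -1.51 to 0.74 and orsD from -0.91 to 0.45. In the difference of salt responses orsB ran from -0.53 to 1.72 and orsE from -0.88 to 2.06. In pre-starved used against pre-starved refed orsC ran from -0.16 to 1.57 and orsD from -0.33 to 1.03. In pre-starved against naive used medium orsA ran from -0.21 to 0.91 and orsC from -0.25 to 1.35. In the difference of used medium responses orsD ran from -1.24 to 0.11 and orsE from -2.05 to 1.83. In pre-starved used medium against salt orsE ran from -1.54 to 1.30, and in pre-starved salt against starved orsD ran from -0.19 to 0.072 and orsE from -0.32 to 2.44.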

Other observations

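The genes just outside the block moved apart from each other, and the following were chosen after their values were seen. On the side of orsA, AN7906, AN7907 and AN7908 were higher in starved against grown cultures by log2 changes of 4.95, 4.69 and 4.85 (edgeR adjusted p 5.44e-07, 8.11e-08 and 4.64e-06). In naive salt against naive refed cultures they were higher by 7.50, 4.98 and 3.87, and in naive used medium against naive refed cultures by 7.82, 5.39 and 4.85. On the side of orsE, AN7915 was lower in the same comparisons, by log2 changes of -4.76, -3.06 and -3.26. It stood at 40.0 and 41.1 CPM in grown, 1.58 and 1.40 in starved and 61.3 and 91.9 in pre-starved refed cultures.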
